A study of Chlamydomonas reinhardtii with 12 samples.

Results

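The genes described here are a run of neighbouring identifiers on chromosome 16 of the unicellular green alga Chlamydomonas reinhardtii, from Cre16.g671500 to Cre16.g679300 in ID order. With 1 ID left out by the membership rule, the range held 257 of the 17741 IDs in the count table. Of these, 233 had 10 or more counts in at least 3 of the 12 libraries and are called members below, among 15491 such genes in all. Of the 24 IDs that did not reach this level, 6 had 0 counts in every library. The range was proposed with the differences between vip1-1 and wild-type known, so every genotype difference below is a description of chosen genes and carries no test of its own.

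Polyadenylated RNA was sequenced from 4 groups of 3 libraries each. The groups were vip1-1 after 14 days (nutritional stress), vip1-1 after 24 h (control), wild-type after 14 days and wild-type after 24 h. Strain vip1-1 lacks normal inositol pyrophosphates, and the study asked how these compounds act in the response to scarce nutrients. All cultures grew in liquid TAP (Tris-acetate-phosphate) medium at 25 °C and 50 µmol of photons per square metre and second, and the labels give the strain name CC-1690 to both genotypes. vip1-1 is 1 mutant strain, so the mutation and anything else that sets this strain apart from the wild-type cannot be told apart. Culture age and nutrient state changed together, so "stress" means the older culture. The labels call the replicates biological and say no more of their origin, so p-values measure the spread between these libraries.

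Inositol pyrophosphates are inositol phosphates that carry diphosphate groups, and enzymes of the VIP1 family make them. In yeasts, plants and algae they are linked to phosphate sensing and to the control of growth by nutrients. Chlamydomonas is haploid in its vegetative state, so each nuclear gene is present as a single copy and a difference at a locus between strains is not masked by another allele. The reference table used here pairs no member with a gene symbol (0 of 233), so members are named by ID and no function is given for them.

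Library totals ran from 9749837 to 28833327 counts. Outside 6 abundant features that rise and fall together, from 2829344 counts (wild-type control replicate 1) to 27921445 counts were left. Levels below are CPM, counts scaled to 1000000 per library after TMM scaling (trimmed mean of M values, a correction for composition), unless FPKM is named. Control libraries did not group cleanly by genotype. Spearman correlations were taken across the 15257 tested genes outside the range. Wild-type control replicate 3 was at 0.926, 0.927 and 0.953 with the vip1-1 control libraries, against 0.835 and 0.894 with the other wild-type control libraries. For wild-type control replicate 2 these values were 0.938, 0.937 and 0.854, against 0.898 and 0.894. vip1-1 control replicate 3 was at 0.803, 0.854 and 0.953 with wild-type control, against 0.909 and 0.911 within its group. Across the 233 members, wild-type control replicate 3 was at 0.805, 0.808 and 0.855 with vip1-1 control, against 0.818 and 0.877 within its group.

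ID order was not the order of the genes along the chromosome. All 233 members matched the RefSeq table of assembly Chlamydomonas_reinhardtii_v5.5, which served here only for the order of neighbours. In it the IDs of the range fell into 5 stretches of adjacent genes. A long stretch held 211 members, a short one 19 (Cre16.g671685 to Cre16.g679164), and 3 members stood alone (Cre16.g671500, Cre16.g674851 and Cre16.g677702). Along the long stretch the IDs fell from Cre16.g679300 to Cre16.g671600 over 152 members and then rose from Cre16.g671713 to Cre16.g679221 over 59 members. Genes far apart by ID can therefore be neighbours, and genes adjacent by ID can lie on different stretches. Among the 1159 tested genes of chromosome 16, the long stretch took places 842 to 1053, beyond the middle of the chromosome, and the short stretch places 496 to 514. The working name "middle of chromosome 16" therefore fits the short stretch by place, and not the long one. Ordering by assembly was chosen after the values were seen.

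**Figure D1:**
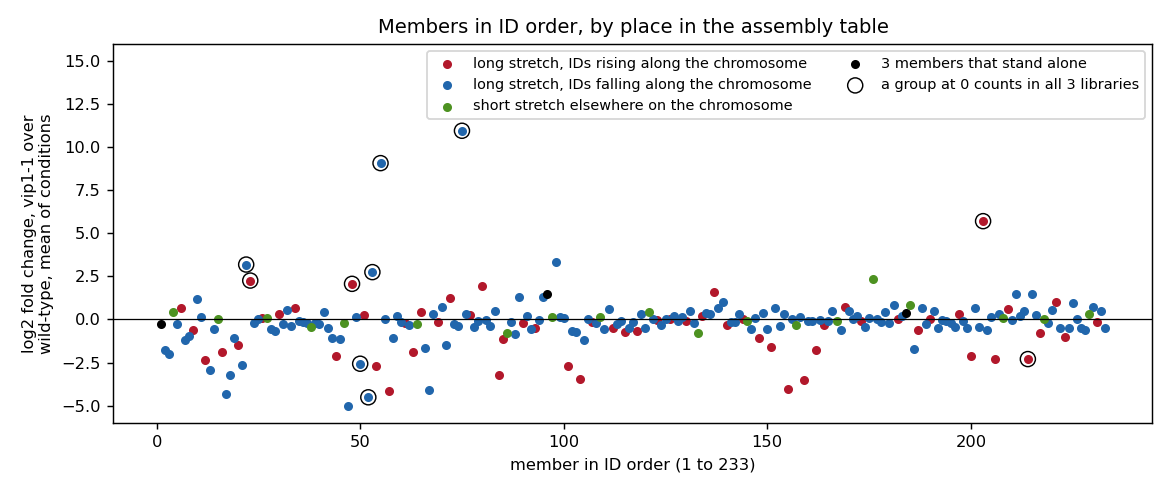
Log2 fold change of vip1-1 over wild-type, mean of both conditions (vertical axis), for the 233 members in ID order (horizontal axis); colours give the place in the assembly table, and circles mark members with a group at 0 counts in all 3 libraries, whose fitted values depend on the prior count. Members well below 0 come from both arms of the long stretch, whereas no member of the short stretch was lower by a log2 fold change of 1 or more.

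In the mean of both conditions, 26 members were called between the genotypes at an adjusted p under 0.05 in edgeR's quasi-likelihood fit, 4 higher and 22 lower in vip1-1. That was 11.2% of the members, while 1.92% of all 15491 genes were called (1.28% higher, 0.646% lower). The range was chosen on this contrast, so nothing is read from the difference between these shares. By size alone, 39 members (16.7%) were lower by a log2 fold change of 1 or more and 20 (8.58%) were higher, where all genes had 3.21% lower and 7.74% higher. In all genes larger values were more often higher in vip1-1, and in the members more often lower. Among genes with a mean of at least 5 CPM, 2.6% of all were lower and 3.13% higher, against 16.6% and 4.57% of the members. The excess of higher values over all genes was thus mainly in genes of lower level. The median log2 fold change was -0.10 over the members and 0.08 over all genes, and the median size was 0.45 over the members. In whole cultures, less RNA in every cell and loss of the RNA from some cells cannot be told apart.

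In stress cultures, 13 members were called, 4 higher and 9 lower in vip1-1 (5.58%, against 1.52% of all genes, with 0.949% higher and 0.575% lower). In control cultures, 7 were called, 2 higher and 5 lower (3.00%, against 0.252% of all genes, with 0.174% higher and 0.0775% lower). By size, 46 members were lower and 23 higher in stress by a log2 fold change of 1 or more (8.87% and 9.7% of all genes), and 35 were lower and 18 higher in control (2.87% and 10.9% of all genes). Called in both conditions were 4 members, Cre16.g674151 (higher) and Cre16.g671600, Cre16.g671950 and Cre16.g673852 (lower), out of 20 such genes among all 15491 tested.

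These counts moved with single libraries. Dropping wild-type control replicate 3 gave 30 calls in control and 41 in the mean of conditions, while the calls over all genes rose as well, to 5.55% and 8.53%. The control count fell to 2 on dropping wild-type control replicate 2 or either of vip1-1 control replicates 1 and 2, and to 4 on dropping any of wild-type control replicate 1, wild-type stress replicates 1 and 2 and vip1-1 stress replicate 2. The stress count fell to 3 when vip1-1 stress replicate 2 or 3 was dropped, to 5 for vip1-1 stress replicate 1, to 4 for wild-type stress replicate 2, to 7 for either of the other wild-type stress replicates, and to 6 for vip1-1 control replicate 1 or 2. The count in the mean of conditions fell to 13 when vip1-1 stress replicate 3 was dropped, to 15 for vip1-1 control replicate 2, and to 17 for vip1-1 control replicate 1, vip1-1 stress replicate 2 or wild-type stress replicate 2. Replicate numbers paired the control libraries, and with the number as a block the control count was 2, or 0 when only the control libraries were fitted (45 members at an unadjusted p under 0.05). In stress the block gave 8.

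The libraries can also be compared without the model. For 30 members the CPM ranges of the genotypes did not overlap in either condition and lay on the same side in both, 5 with higher and 25 with lower values in vip1-1. That was 12.9% of the members, where 4.41% of all genes met this rule (2.96% higher, 1.45% lower). In stress alone the ranges were apart for 93 members (39.9%, against 31% of all genes), and in control alone for 56 members (24.0%, against 12.5%). The log2 fold changes in stress and control correlated at r 0.57 and rho 0.40 across the 233 members, against 0.31 and 0.16 across all genes. They come from separate libraries, and the genes are not independent. The sign agreed between conditions for 146 members (62.7%, against 54.7% of all genes).

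Along the assembly, the differing members were not spread evenly over the long stretch. Its 211 members were divided in order into 8 bins of 25 and a last bin of 11. In the first 4 bins, from Cre16.g679300 to Cre16.g674300, 0 of 100 members were called in the mean of conditions, 2 were lower by a log2 fold change of 1 or more and 6 were higher. In the last 5 bins, from Cre16.g674250 across the turn of the ID order to Cre16.g679221, 24 of 111 members were called, 21 of them lower in vip1-1. In that section 37 members were lower and 12 higher by a log2 fold change of 1 or more (44.1% in all, against 8.0% in the first 4 bins and 10.9% of all genes). Of all 15491 genes, 3.21% were lower and 7.74% higher by this size. In stress alone, 2 members of the first 4 bins and 10 of the last 5 were called, and in control alone 0 and 6. The shares called over all genes were 1.92% in the mean of conditions, 1.52% in stress and 0.252% in control. The line between bins 4 and 5 was chosen after the values were seen.

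The calls per bin were 5, 5, 7, 5 and 2 in bins 5 to 9. Bin 7, which holds the turn of the ID order (Cre16.g671650 to Cre16.g674515), had the most members lower by a log2 fold change of 1 or more, 11 of 25. Its median log2 fold change was -1.24 in stress and -0.11 in control. In the other bins of the section the median lay between -0.48 and 0.09 in stress and between -0.60 and 0.06 in control, so in each bin a share of the members differed strongly beside many that did not. The log2 fold changes in stress and control correlated at r 0.63 across the 111 members of the section and at 0.10 across the 100 members before it. The section was cut after these values were seen, so a higher r within it is partly built in. Members with very large values, such as Cre16.g674151, also weigh on r. The median level was 8.20 CPM in the section and 13.0 CPM before it, so the section was measured from somewhat fewer counts.

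**Figure D2:**
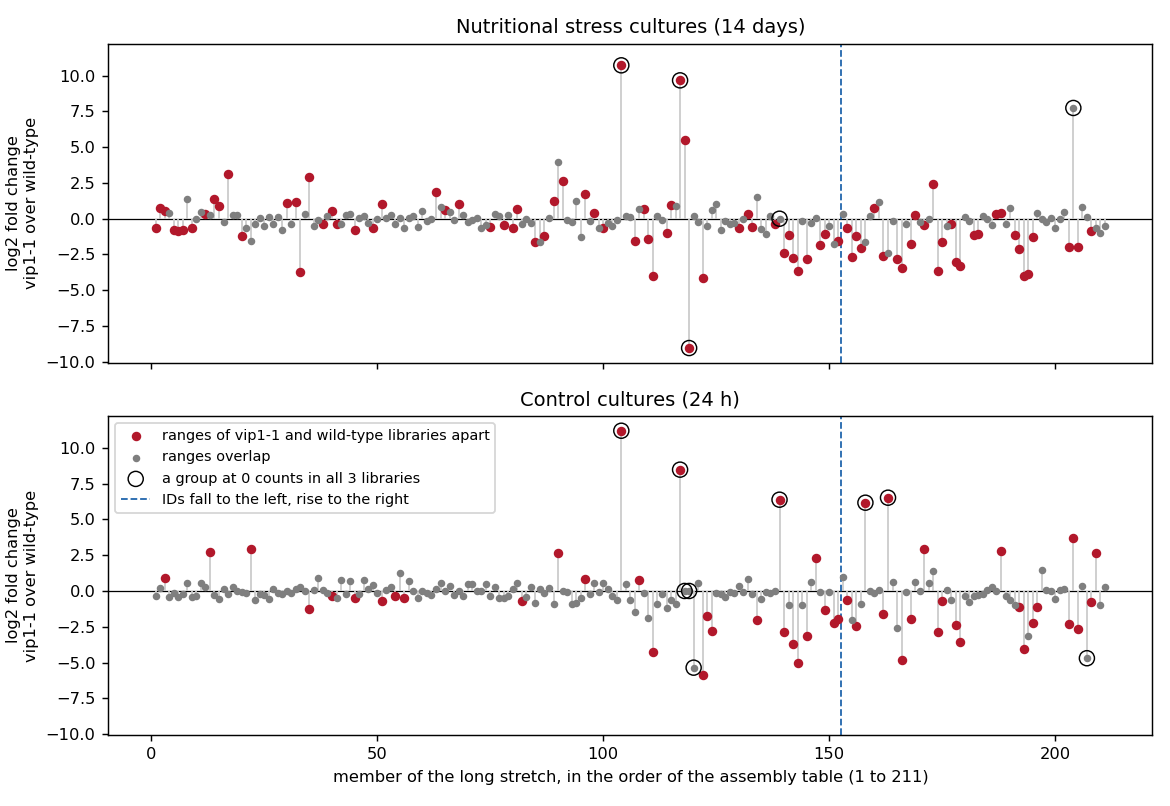
Log2 fold change of vip1-1 over wild-type (vertical axes) for the 211 members of the long stretch in assembly order (horizontal axis), in stress (upper panel) and control (lower panel); red points have CPM ranges that do not overlap, grey points overlap, circles mark a group at 0 counts in all 3 libraries, where the fitted value depends on the prior count, and the dashed line marks the turn of the ID order. Up to member 100 most points stay near 0, and beyond it the larger differences, mostly downward, recur in both panels.

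Beyond the far end of the long stretch, the next 25 tested genes of the assembly held 2 called genes, both lower in vip1-1, and 6 that were lower and 0 that were higher by a log2 fold change of 1 or more. The 25 genes before its near end held 0 called genes, with 1 lower and 1 higher. Over all 15491 genes, 1.92% were called, and 3.21% were lower and 7.74% higher by this size. Genes lower in vip1-1 by this size were thus 24% of the 25 beyond Cre16.g679221, the last member in assembly order. They were 4% of the 25 before Cre16.g679300, the first. With 25 genes on each side, these shares are rough. Among the 19 members of the short stretch, 2 were called, Cre16.g677382 (higher) and Cre16.g675958 (lower), with 0 lower and 1 higher by a log2 fold change of 1 or more. In ID order, the 50 tested IDs below the range held 0 called genes and the 50 above it held 2, both lower. Just inside the ends of the ID range, the mean log2 fold changes were -0.29, -1.78, -2.0, 0.46 and -0.26 for the first 5 members and 0.34, 0.72, -0.12, 0.50 and -0.48 for the last 5. Just outside, they were 2.82, 0.31, -0.47, 0.36 and 0.85 below the range and 0.86, 0.26, -0.05, -0.37 and -0.15 above it.

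Elsewhere in the genome no block of 25 tested genes held as many lower genes. The range was proposed with the genotype differences known, and assembly order was chosen after the values were seen. The comparison of blocks therefore describes that choice and tests nothing. In assembly order there were 605 such blocks, of which 15 held members. The highest number of genes lower by a log2 fold change of 1 or more was 11 in a block with members and 5 in the 590 blocks without. The highest number of called genes was 7 with members and 4 without, and the lowest median log2 fold change -0.65 with and -0.31 without. In ID order, which mixes the stretches, the corresponding numbers were 9 and 5 lower genes and 5 and 4 called genes, and the lowest median came from a block without members (-0.41, against -0.25 with). The rest of chromosome 16, 925 tested genes, held 27 called genes, 23 higher and 4 lower in vip1-1.

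**Figure D3:**
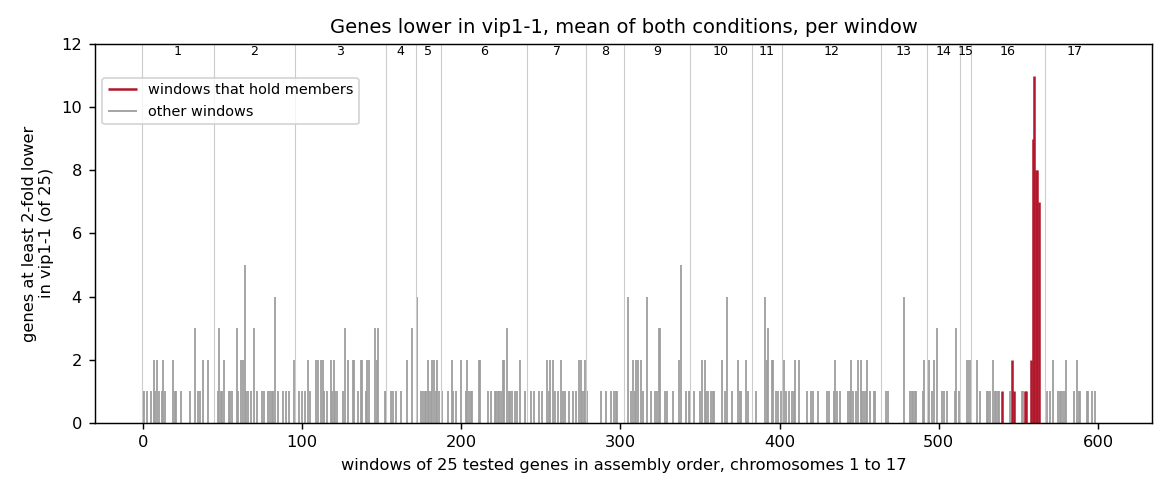
Number of genes lower in vip1-1 by a log2 fold change of 1 or more, mean of both conditions (vertical axis, of 25), in consecutive blocks of 25 tested genes in assembly order (horizontal axis, chromosomes 1 to 17 from left to right); red lines are blocks that hold members and grey lines other blocks. The red blocks of the long stretch reach 11, and no grey block exceeds 5. The range was proposed with the genotype differences known, so this contrast describes that choice.

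The members lower in vip1-1 included 2 of the 6 with the highest FPKM. Cre16.g671950 had 37.9, 48.4 and 40.1 CPM in vip1-1 stress, against 278, 384 and 211 CPM in wild-type stress. In control it had 43.3, 43.7 and 50.2 CPM in vip1-1, against 561, 504 and 140 CPM in wild-type. The genotypes did not overlap in either condition, and the lowest wild-type value was that of wild-type control replicate 3. The log2 fold change was -2.79 (SE 0.45) in stress and -3.13 (SE 0.45) in control. Scaled to length, its mean over the 12 libraries was 80.0 FPKM, the fifth highest of the members.

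Cre16.g673729 had 10.2, 32.7 and 24.6 CPM in vip1-1 stress, against 83.8, 98.9 and 47.1 CPM in wild-type stress. The control values were 44.1, 47.3 and 44.1 CPM in vip1-1, against 249, 166 and 124 CPM in wild-type. The ranges were again apart in both conditions, with log2 fold changes of -1.76 (SE 0.42) in stress and -1.99 (SE 0.42) in control. Each stress library also lay below each control library of its own genotype.

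Cre16.g673852 had 3.21, 6.37 and 6.11 CPM in vip1-1 stress, against 87.4, 89.3 and 69.7 CPM in wild-type stress. Control cultures had 3.16, 2.05 and 3.68 CPM in vip1-1, against 67.1, 66.0 and 35.1 CPM in wild-type. Every wild-type library lay above every vip1-1 library, by log2 fold changes of -3.97 (SE 0.38) in stress and -4.24 (SE 0.38) in control. Its counts differed by at most 11.3% in any library from those of Cre11.g476325, an ID of chromosome 11, so the level is uncertain if reads were shared between these IDs. Cre11.g476325 itself had log2 fold changes of -4.08 in stress and -4.27 in control.

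Cre16.g671600 had 8.30, 11.4 and 12.5 CPM in vip1-1 stress, against 29.7, 28.8 and 36.8 CPM in wild-type stress. In control it had 6.17, 5.51 and 3.96 CPM in vip1-1, against 30.3, 15.9 and 16.9 CPM in wild-type. The groups did not overlap, and the log2 fold change was -1.57 (SE 0.31) in stress and -1.99 (SE 0.31) in control. This gene stands at the turn, as the last member of the arm with falling IDs.

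Several members were close to absent in vip1-1. Cre16.g673150 had 0, 1.23 and 1.51 CPM in vip1-1 stress, against 18.8, 16.8 and 13.2 CPM in wild-type stress. Its control values were 0, 0 and 0.761 CPM in vip1-1, against 15.4, 16.1 and 14.6 CPM in wild-type. Its averaged log2 fold change of -5.01 (SE 0.91) was the lowest among the members whose ranges were apart in both conditions.

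Cre16.g676645 had 0, 1.92 and 0.567 CPM in vip1-1 stress, against 15.3, 11 and 16.5 CPM in wild-type stress. In control it had 0.323, 1.00 and 3.23 CPM in vip1-1, against 22.3, 20.4 and 35.3 CPM in wild-type. Cre16.g672050 and Cre16.g673505 had the same form, with at most 2.21 CPM in any vip1-1 library, averaged log2 fold changes of -4.34 (SE 0.96) and -4.15 (SE 0.82), and at least 2.67 CPM in every wild-type library. Cre16.g673505 lies on the arm with rising IDs and Cre16.g672050 on the arm with falling IDs. In the mean of conditions, Cre16.g672050 was no longer called in 9 of 19 alternative analyses and Cre16.g673505 in 6 of 19.

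Cre16.g674403 had 1.11, 2.90 and 1.70 CPM in vip1-1 stress, against 21.2, 23.2 and 29.0 CPM in wild-type stress. Controls were at 1.83, 0.794 and 3.84 CPM in vip1-1, against 12.8, 20.7 and 12.5 CPM in wild-type. The groups were apart, and the log2 fold change was -3.66 (SE 0.56) in stress and -2.84 (SE 0.54) in control. Cre16.g672100, Cre16.g672200, Cre16.g674964, Cre16.g678437 and Cre16.g678213 completed the 12 lowest by rule, with averaged log2 fold changes from -3.24 to -2.15. In each of them all 6 vip1-1 libraries were at 13.0 CPM or less, and the groups were apart in both conditions. The smallest gap was in Cre16.g672100 in control, at 3.54 CPM in the highest vip1-1 library against 6.75 CPM in the lowest wild-type library, which was wild-type control replicate 3.

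**Figure D4:**
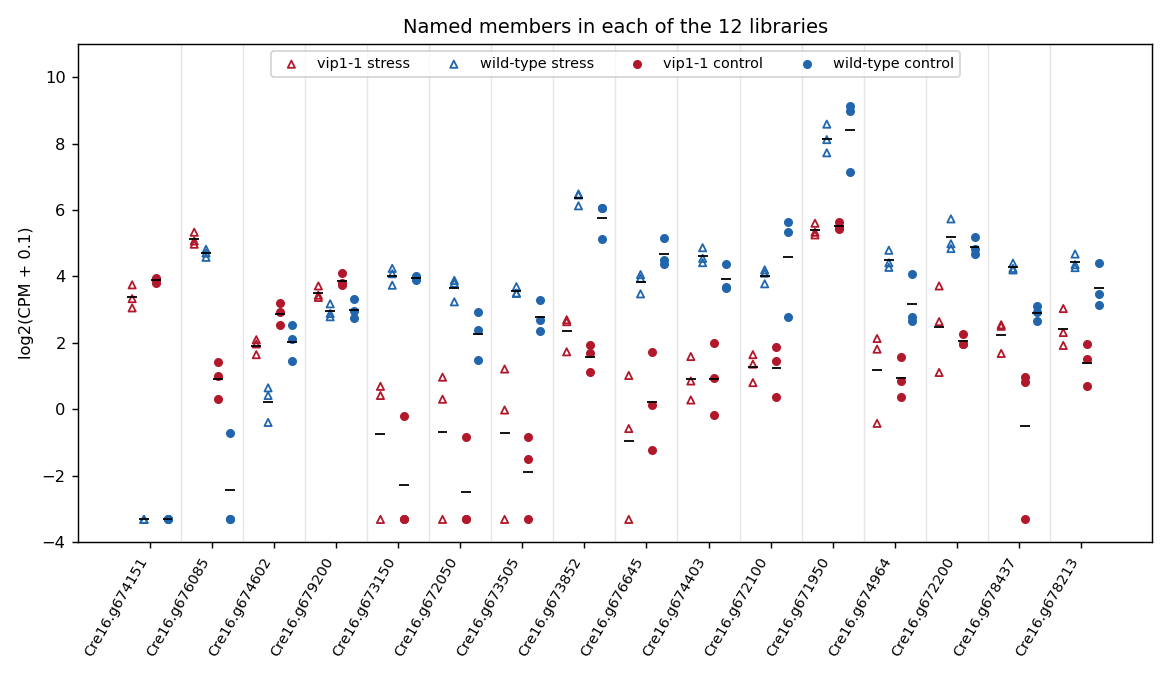
Level, as log2(CPM + 0.1) on the vertical axis, of the 16 members whose genotype ranges were apart in both conditions and that the naming rule selected, in each library; triangles are stress and circles control, red vip1-1 and blue wild-type, and bars are means of the log2 values of 3 libraries. The first 4 genes are higher and the other 12 lower in vip1-1, and the lowest line of points is 0 counts.

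Few members of sufficient level were higher in vip1-1 in both conditions. Cre16.g674151 had 13.3, 8.18 and 9.95 CPM in vip1-1 stress and 13.9, 15.5 and 14.6 CPM in vip1-1 control, and 0 counts in all 6 wild-type libraries. Wild-type control replicate 3 was among the libraries at 0. Against a floor of 3 counts per library, the gene was at least 38.0-fold higher in vip1-1 in stress and at least 36.1-fold in control, or 89.2-fold in control without wild-type control replicate 1. The gene passed the count filter only through vip1-1, where it is high, so these values describe a chosen gene. It stands in bin 5, where the section of differing genes begins in assembly order.

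Cre16.g673400 had 77, 102 and 112 counts in vip1-1 stress and 72, 114 and 38 counts in vip1-1 control, and likewise 0 counts in all wild-type libraries. It was at least 18.4-fold higher in stress and at least 5.46-fold in control, or 13.5-fold without wild-type control replicate 1. Cre16.g672250 was detected only in vip1-1 control, with 18, 17 and 15 counts, at least 1.26-fold higher than in wild-type, or 3.12-fold without wild-type control replicate 1. Cre16.g673300 was detected only in wild-type stress, at 5.32, 2.96 and 1.5 CPM, and was at least 20.7-fold lower in vip1-1 stress. At these low counts the last 2 genes show little beyond their presence in 1 group. Each gene of this paragraph passed the count filter only through the genotype where it was detected, so its values describe a chosen gene.

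The other 3 named higher members differed less. Cre16.g679200 had 13.0, 10.2 and 10.7 CPM in vip1-1 stress, against 6.78, 7.27 and 8.92 CPM in wild-type stress. In control it had 16.9, 13.7 and 13.3 CPM in vip1-1, against 9.80, 6.57 and 7.67 CPM in wild-type. Its log2 fold change was 0.56 (SE 0.26) in stress and 0.89 (SE 0.26) in control. For Cre16.g674602 the log2 fold change was 1.70 (SE 0.49) in stress and 0.85 (SE 0.47) in control, and for Cre16.g676085 0.43 (SE 0.49) in stress and 2.77 (SE 0.67) in control.

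Cre16.g677382, on the short stretch and picked after its values were seen, was called in control and in the mean of conditions but not in stress. It had 73.5, 59.4 and 57.1 CPM in vip1-1 stress, against 83.8, 117 and 50.5 CPM in wild-type stress. The control values were 52.8, 57.4 and 63.5 CPM in vip1-1, against 0, 0.584 and 3.38 CPM in wild-type. The genotypes overlapped in stress, and only the wild-type controls were low. The log2 fold change was -0.40 (SE 0.58) in stress and 5.12 (SE 0.71) in control, and the difference between them, -5.52 (SE 0.89), was not called (edgeR adjusted p 0.067).

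The other 4 of the 6 members with the highest FPKM differed little between genotypes. Cre16.g675637 had the highest mean level per length, 272 FPKM, followed by Cre16.g672650 (138 FPKM), Cre16.g673109 (117 FPKM) and Cre16.g677450 (98.1 FPKM). Their log2 fold changes between genotypes ran from -0.25 to 0.17 in stress and from -0.23 to -0.08 in control. Each of these was smaller than 1.5 times its standard error. Over all members the median level was 11.6 CPM and 4.08 FPKM, close to the 10.7 CPM and 3.71 FPKM over all genes, so the members as a group were neither weak nor strong.

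The share of counts taken by the region can be split in the same way. Counts outside the 6 abundant features were the denominator. A summed share is weighted towards members with many counts, such as Cre16.g671950 and Cre16.g673729 in the last 5 bins. It does not show how many members were lower. The last 5 bins of the long stretch took 0.248% ± 0.0193 in vip1-1 stress, against 0.412% ± 0.0413 in wild-type stress (SD, n = 3 each). In control they took 0.272% ± 0.00750 in vip1-1, against 0.370% ± 0.0109 in wild-type (SD, n = 3 each). The ranges were apart in both conditions, with at most 0.278% in any vip1-1 library and at least 0.360% in any wild-type library. The line between the first 4 and the last 5 bins was drawn after the genotype values were seen. These shares therefore describe that choice and test nothing. The first 4 bins took 0.264% ± 0.0152 in vip1-1 stress, against 0.301% ± 0.0207 in wild-type stress, while the control shares were 0.277% ± 0.000405 in vip1-1, against 0.276% ± 0.0125 in wild-type (SD, n = 3 each). In control the means of the first 4 bins thus differed by less than the spread between wild-type libraries, and in stress the highest vip1-1 and the lowest wild-type library were both at 0.278%.

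The response to stress was not used to choose the range, and it was tested. The count filter, however, could be passed through stress libraries alone, as it was by Cre16.g673250, Cre16.g678661 and Cre16.g673300. Stress calls of such genes describe chosen genes. In vip1-1, 49 of the 233 members were called between stress and control, 29 higher and 20 lower (21.0%, against 22.8% of all genes, with 12% higher and 10.8% lower). The test was edgeR's quasi-likelihood test, with p adjusted over all 15491 genes by Benjamini-Hochberg. In wild-type, 54 were called, 26 higher and 28 lower (23.2%, against 25.6% of all genes, with 13.7% higher and 11.9% lower). These shares were close to those of the genome. In the differing section of the long stretch, 21 of 111 members were called in vip1-1 (18.9%) and 23 in wild-type (20.7%), and in the first 4 bins 25 and 26 of 100. Both genotypes called 31 members in the same direction, 18 higher and 13 lower in stress (13.3%, against 16% of all genes). The vip1-1 count fell to 26 when vip1-1 stress replicate 3 was dropped, to 32 for vip1-1 control replicate 1 and to 28 for vip1-1 control replicate 2. The wild-type count was 31 when only the wild-type libraries were fitted.

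Among the members higher in stress in both genotypes, Cre16.g677100 had 64.2, 80.0 and 84.3 CPM in vip1-1 stress, against 4.09, 5.18 and 3.38 CPM in vip1-1 control. In wild-type it had 49.9, 48.4 and 81.7 CPM in stress, against 4.16, 3.07 and 1.28 CPM in control. Every stress library lay above every control library. The log2 fold change was 4.17 in vip1-1 (SE 0.40, edgeR adjusted p 6e-05) and 4.53 in wild-type (SE 0.43, adjusted p 4.3e-05).

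Cre16.g674065 had 33.5, 30.7 and 29.5 CPM in vip1-1 stress, against 0.610, 0.923 and 2.31 CPM in vip1-1 control. In wild-type it had 34.4, 42.9 and 49.2 CPM in stress, against 0, 0 and 0.294 CPM in control. It rose by a log2 fold change of 4.60 in vip1-1 (SE 0.58, edgeR adjusted p 0.00028) and of 7.96 in wild-type (SE 0.76, adjusted p 4.4e-05). The difference between these responses was not called. Cre16.g676085 rose likewise, by 4.21 in vip1-1 (SE 0.57, edgeR adjusted p 0.00042) and 6.55 in wild-type (SE 0.70, adjusted p 9.5e-05).

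Cre16.g673250 and Cre16.g678661 were nearly silent in control. They passed the count filter only through their stress libraries and were named for the size of their response, so their values describe chosen genes. Cre16.g673250 had 16.7, 20.8 and 35.1 CPM in vip1-1 stress, against 0 counts in all vip1-1 controls, and was at least 263-fold higher (edgeR adjusted p 0.00012). In wild-type it had 26.0, 19.3 and 17.1 CPM in stress, against 0, 0 and 0.477 CPM in control (edgeR adjusted p 0.00057). The only control library with counts was wild-type control replicate 3. Cre16.g678661 had 3.10, 9.16 and 29.4 CPM in vip1-1 stress, with 0 counts in vip1-1 control, which is at least 151-fold higher, or 66.6-fold without vip1-1 stress replicate 3 (edgeR adjusted p 0.00083). In wild-type it had 13.7, 16.8 and 8.55 CPM in stress, against 0, 0 and 0.294 CPM in control, a call that limma voom did not make (adjusted p 0.10, limma voom with sample weights).

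Members lower in stress included Cre16.g672650, one of the most abundant. It had 55.3, 102 and 70.6 CPM in vip1-1 stress, against 436, 423 and 419 CPM in vip1-1 control. In wild-type it had 101, 76.8 and 56.5 CPM in stress, against 498, 438 and 418 CPM in control. It fell by 2.49 on the log2 scale in vip1-1 (SE 0.28, edgeR adjusted p 0.00014) and by 2.53 in wild-type (SE 0.28, adjusted p 0.00012). The genotypes were close in each condition.

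Cre16.g672609, Cre16.g675500 and Cre16.g673953 also fell in both genotypes. The log2 fold change was -2.88, -1.70 and -1.88 in vip1-1 (edgeR adjusted p 0.0036, 0.0044 and 0.0084). In wild-type it was -4.01, -2.39 and -1.67 (edgeR adjusted p 0.00084, 0.00067 and 0.015). The genotype ranges of these 3 genes overlapped in both conditions.

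Cre16.g676700 fell in both genotypes. It had 84.2, 71.4 and 75.2 CPM in vip1-1 stress, against 148, 132 and 147 CPM in vip1-1 control. In wild-type it had 37.2, 35.2 and 43.1 CPM in stress, against 224, 278 and 205 CPM in control. vip1-1 was thus above wild-type in every stress library and below it in every control library. The log2 fold change was -0.89 in vip1-1 (SE 0.19, edgeR adjusted p 0.0066) and -2.61 in wild-type (SE 0.20, adjusted p 1.7e-05). The difference between these responses, 1.73 (SE 0.27), did not pass the threshold (edgeR adjusted p 0.062). With the stricter filter of 10 counts in all libraries it did (edgeR adjusted p 0.041).

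**Figure D5:**
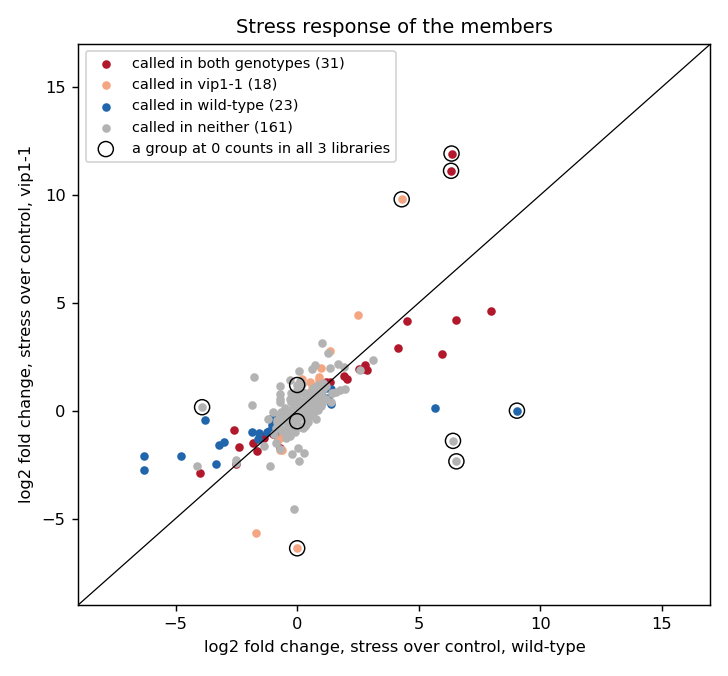
Log2 fold change of stress over control in vip1-1 (vertical axis) and wild-type (horizontal axis) for the 233 members, coloured by the edgeR calls in each genotype, with the line of equal response; circles mark a group at 0 counts in all 3 libraries, where the fitted value depends on the prior count. The 31 members called in both genotypes lie in the upper right and lower left, and 161 members were called in neither.

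The difference between the stress responses was called for 0 of the 233 members by edgeR (0.0387% of all genes), with 20 members at an unadjusted p under 0.05. DESeq2 called 9 members (1.4% of all genes) and limma voom 15 (3.37% of all genes). Dropping wild-type control replicate 3 gave 8 calls (3.23% of all genes), and dropping vip1-1 control replicate 3 or wild-type stress replicate 3 gave 1. A count of 0 here does not show that the responses were equal.

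The region as a whole took 0.594% ± 0.0345 of the counts in vip1-1 stress, against 0.647% ± 0.00306 in vip1-1 control (SD, n = 3 each), a log2 difference of -0.12. In wild-type it took 0.824% ± 0.0646 in stress, against 0.725% ± 0.0265 in control (SD, n = 3 each), a log2 difference of 0.18. Every stress library was lower than every control library in vip1-1 and higher in wild-type. Each comparison had an exact two-sided permutation p of 0.1, the smallest that 3 libraries against 3 allow. With all counts as the denominator, the difference was -0.42 in vip1-1 (exact permutation p 0.1, again the smallest possible) and -0.14 in wild-type (exact permutation p 0.8).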

How the data were processed

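Per the labels, polyadenylated RNA from 12 cultures (4 groups of 3) was made into TruSeq Stranded mRNA libraries. The submitters' processing notes name HISAT2 and StringTie; versions, genome build and strand setting are not given in the sources used here. The authors deposited whole-number read counts per gene and FPKM values (fragments scaled to transcript length and library total) for 17741 IDs, and all columns were matched to samples by the short names in the labels.

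The members, gene lists and alternatives were chosen with earlier results of these data known. Genes with 10 or more counts in at least 3 of 12 libraries (15491) were fitted with edgeR 4.0.16 in R 4.3.3, using TMM, a group-means model of all libraries, robust quasi-likelihood tests and Benjamini-Hochberg adjustment over all genes, called at 0.05. The procedure was tested on simulated data. Standard errors were approximated from the F statistic, as the size of the log2 fold change over the root of F. Named members are those with genotype ranges apart in both conditions and a mean of at least 5 CPM in a genotype (up to 12 each way), those at 3 counts or fewer in all 6 libraries of a genotype, the 5 largest stress responses each way called in both genotypes, interaction calls, the 5 genes inside and outside each end, the 6 highest FPKM, and members sharing counts with another ID. Of the last kind, within 10% in every library, only Cre16.g672700 was found, matching 6 IDs of other chromosomes, so its values are uncertain and not used. Groups by product were not formed, since the reference table gives no products, and the gene disrupted in vip1-1 was not analysed here.

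Replicate numbers come from the labels. Libraries with the same number deviated together from their groups, with correlations across genes of 0.24, 0.30 and 0.52 between vip1-1 control and wild-type control, over 0.1 in every pair. The main fit had no block for the replicate number and so ignored this pairing. It entered only in the alternatives with a replicate block. In every other pair of groups at least 1 correlation was 0.1 or less. No library duplicated another, but vip1-1 control replicates 1 and 2 were closer to each other than any other replicates of a group. Their Spearman correlation was 0.99 across the tested genes outside the range, against 0.909 and 0.911 with vip1-1 control replicate 3. The spread within vip1-1 control may be understated if they were not independent cultures. Alternatives were DESeq2 1.42.0, limma 3.58.1 voom with sample weights, other scalings and filters, replicate blocks, only the libraries compared, and each library left out in turn. Shares of counts were compared by exact permutation with scipy 1.17.1. Floors cover counting error only, whereas the standard errors include the spread between libraries.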

Additional observations from a re-analysis of the deposited data

Results flagged for a closer look

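The share of counts in the region, outside the 6 abundant features, was lower in stress in all 3 vip1-1 libraries and higher in stress in all 3 wild-type libraries, set against the controls of the same genotype. The difference between these responses was -0.30 on the log2 scale (vip1-1 minus wild-type). The difference was not tested. With all counts as the denominator the stress response was -0.42 in vip1-1 and -0.14 in wild-type on the log2 scale. In the last 5 bins of the long stretch the share was 0.248% in vip1-1 stress and 0.272% in vip1-1 control, against 0.412% in wild-type stress and 0.370% in wild-type control. That section was cut after the genotype values were seen.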

How the results depend on the processing

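Leaving out 1 library at a time gave 2 to 30 members called between genotypes in control (7 with all libraries), 3 to 15 in stress (13), 13 to 41 in the mean of conditions (26), 26 to 62 in the stress response of vip1-1 (49), 38 to 65 in that of wild-type (54) and 0 to 8 for the difference between responses (0). The log2 share of counts differed by -0.17 to -0.10 in vip1-1 and by 0.12 to 0.22 in wild-type. DESeq2 called 29 members in control (1.82% of all genes), 34 in stress (6.97%), 45 in the mean of conditions (6.27%) and 9 for the difference between responses (1.4%). Limma voom called 28 (2.33%), 99 (26.1%), 74 (17.4%) and 15 (3.37%) of these, and 162 (66.3%) and 83 (40%) in the stress responses of vip1-1 and wild-type. The replicate block, with numbers that pair only the control libraries, gave 2 in control and 8 in stress, and 0 when only the control libraries were fitted; it changed no other count by over 1.5 times. With only the libraries compared, 3 were called in control and 31 in the stress response of wild-type. With at least 10 counts in every sample, 1 member was called for the difference between responses. With all counts as the denominator the share changed by -0.42 in place of -0.12 in vip1-1 and by -0.14 in place of 0.18 in wild-type; the abundant features then enter the denominator. The cause of the other changes was not tested. Leaving the abundant features out before TMM shifted the difference between responses by -0.15 (median over members) and the control genotype contrast by 0.10. For single named genes, 1028 of 1069 alternative values stayed on the same side of the threshold, 1008 of them with the same sign; the 20 of the other sign were genotype differences not called either way. Another 20 passed the threshold newly and 21 no longer passed it. Most losses fell on Cre16.g672050 (9 of 19 alternatives), Cre16.g673505 (6 of 19), Cre16.g673150 (3 of 19) and Cre16.g676645 (2 of 19). They concerned the genotype difference in the mean of conditions, so the call of Cre16.g672050 in particular depended on the processing. Wild-type control replicate 1 had the fewest counts outside the abundant features, 2829344, which limits low genes there.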
